A study of Rattus norvegicus with 12 samples.

Results

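Striatal lineage transcription factors are the regulators that set and keep the identity of the projection neurons of the striatum, and 10 of them were followed here: Ebf1, Bcl11b, Foxp1, Foxp2, Meis2, Six3, Dlx1, Dlx2, Dlx5 and Dlx6. Members were taken as all non-control probes that carry one of these names on the array, which gave 9 probes of 8 genes, out of 41012 probes of 35608 genes on the array. Foxp2 and Dlx6 had no probe under their name. The gene table lists RGD1559697 as a synonym of Foxp2, and the values of its 2 probes are given below as values outside the set. The family was chosen by a measured value in these samples: Ebf1 was on the study's own lists of genes that differed from 6-OHDA in the HFS and DOPA/HFS groups. Ebf1 is therefore described without a test, and counts of tested members cover the 7 others that were measured.

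Each of the 12 arrays held RNA from the dorsal striatum of 1 male rat, in 4 groups of 3. All rats carried a unilateral lesion of the nigrostriatal dopamine pathway, made with 9 µg of 6-OHDA in the left substantia nigra pars compacta, and lived for 33 days afterwards. Rats of the 6-OHDA group had the lesion alone. The HFS group received continuous high frequency stimulation of the subthalamic nucleus (130 Hz, 80 µs, 60 µA) on the lesioned side for 5 days. The DOPA group received L-DOPA at 25 mg/kg with 12.5 mg/kg benserazide, 2 injections a day for 19 days, the last of them 12 h before death. In the DOPA/HFS group the stimulation ran over the last 5 days of the same L-DOPA course. Per the methods the electrode was implanted in both stimulated groups, so that implantation and stimulation cannot be told apart, and the lack of an unlesioned group among the arrays leaves the effect of the lesion itself unmeasured here. The RNA came from tissue punches, in which fewer cells of a type and less RNA per cell cannot be told apart.

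These factors act in sequence as the striatum forms. In the ganglionic eminence the homeobox genes Dlx1 and Dlx2 start the programme in dividing precursors, and Dlx5 and Dlx6 follow in their postmitotic progeny. Meis2 (a homeobox cofactor), the forkhead factors Foxp1 and Foxp2, and the zinc finger factor Bcl11b, also called Ctip2, then mark maturing projection neurons. Ebf1 is needed for neurons of the direct pathway, which project to the substantia nigra, and Six3 for neurons of the indirect pathway, which project to the globus pallidus. Several of them stay on in the adult striatum, where the Dlx genes are also found in the neuroblasts of the adjoining subventricular zone.

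The RefSeq table of the rat assembly GRCr8 held the 250 bases before 1 transcription start for each of 4 members, Ebf1, Foxp1, Six3 and Dlx1. In Ebf1, Foxp1 and Six3 that start lies inside the span the gene table gives, so the stretch belongs to an internal start and not to the outermost one. The stretches of Ebf1, the factor on the study's lists, and of Foxp1, the forkhead member measured under its own name, are shown 5′ to 3′. Ebf1 lies on the plus strand (chr10:29601671-29601920) and Foxp1 on the minus strand (chr4:133353281-133353530). Capitals mark matches to 4 short motifs searched on both strands: TAATTA (homeodomain proteins such as Dlx), CCCNNGGG (Ebf), TGTTTA (forkhead proteins) and TGACAG (Meis).
Ebf1: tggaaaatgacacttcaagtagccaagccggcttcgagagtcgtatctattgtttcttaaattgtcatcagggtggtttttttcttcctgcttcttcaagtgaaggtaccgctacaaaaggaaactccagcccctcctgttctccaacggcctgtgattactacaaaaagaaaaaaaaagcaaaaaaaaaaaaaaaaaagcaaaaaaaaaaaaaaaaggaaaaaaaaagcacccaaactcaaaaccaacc
Foxp1: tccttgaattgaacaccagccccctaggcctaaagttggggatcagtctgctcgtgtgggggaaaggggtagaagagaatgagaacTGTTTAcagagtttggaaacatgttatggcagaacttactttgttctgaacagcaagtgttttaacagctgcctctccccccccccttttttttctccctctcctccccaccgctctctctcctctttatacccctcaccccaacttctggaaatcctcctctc
The Ebf1 stretch held none of the 4 motifs and was poor in G and C (36.8%, against a median of 51.2% over all 33465 promoters of the table). In Foxp1 there was 1 forkhead match, a motif found in 12.1% of those promoters. Six3 had 1 Meis match, as did 15.8% of all promoters, and Dlx1 had none. The TAATTA motif was in 4.86% and CCCNNGGG in 10.8% of all promoters. A match or its absence describes these letters alone.

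Of the 8 members measured, 7 were well above background on all 12 arrays. Dlx2 was well above background on 5 arrays. No member spot was marked as an outlier or saturated. The share of spots well above background ran from 50.5% to 63.2% of an array. DOPA/HFS replicate 3 stood apart in its quality flags, with 4175 outlier spots against 2 to 23 on the others. In the tissue check, 9 of 10 tested markers of projection neurons, all 4 of the indirect pathway and 4 of 5 of the direct pathway were well above background on all 12 arrays. Of 6 cortical markers 2 could be tested, Neurod2 and Slc17a7, and 1 of them was well above background on all 12 arrays, while Neurod6 and Tbr1 were not found under their names.

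Ebf1 was lower in all 3 treated groups than in the 6-OHDA group, and lowest in the groups that had been stimulated. Its log2 normalised signal (background-corrected intensity, quantile normalised between arrays) was 9.98, 10.52 and 9.97 in the 6-OHDA arrays. The HFS arrays read 9.39, 9.55 and 9.69. The DOPA arrays read 9.88, 9.94 and 9.81, and the DOPA/HFS arrays 9.76, 9.32 and 9.52. No treated array reached the lowest 6-OHDA array, and no stimulated array reached the lowest unstimulated one. As Ebf1 came from the study's own lists, drawn from these arrays, this separation is a description. With a fold over 1.2 or under 0.8 as well, 3.2% of all genes had HFS and 6-OHDA arrays that did not overlap. The share was 3.87% with DOPA, 2.51% with DOPA/HFS and 0.0931% for stimulated against unstimulated arrays. With DOPA the Ebf1 fold, 0.824, did not meet that limit. Group means of Ebf1 were 10.16 ± 0.31 (SD, n = 3), 9.54 ± 0.15, 9.88 ± 0.06 and 9.54 ± 0.22 in the order 6-OHDA, HFS, DOPA and DOPA/HFS. HFS and DOPA/HFS did not differ beyond their spread.

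**Figure D1:**
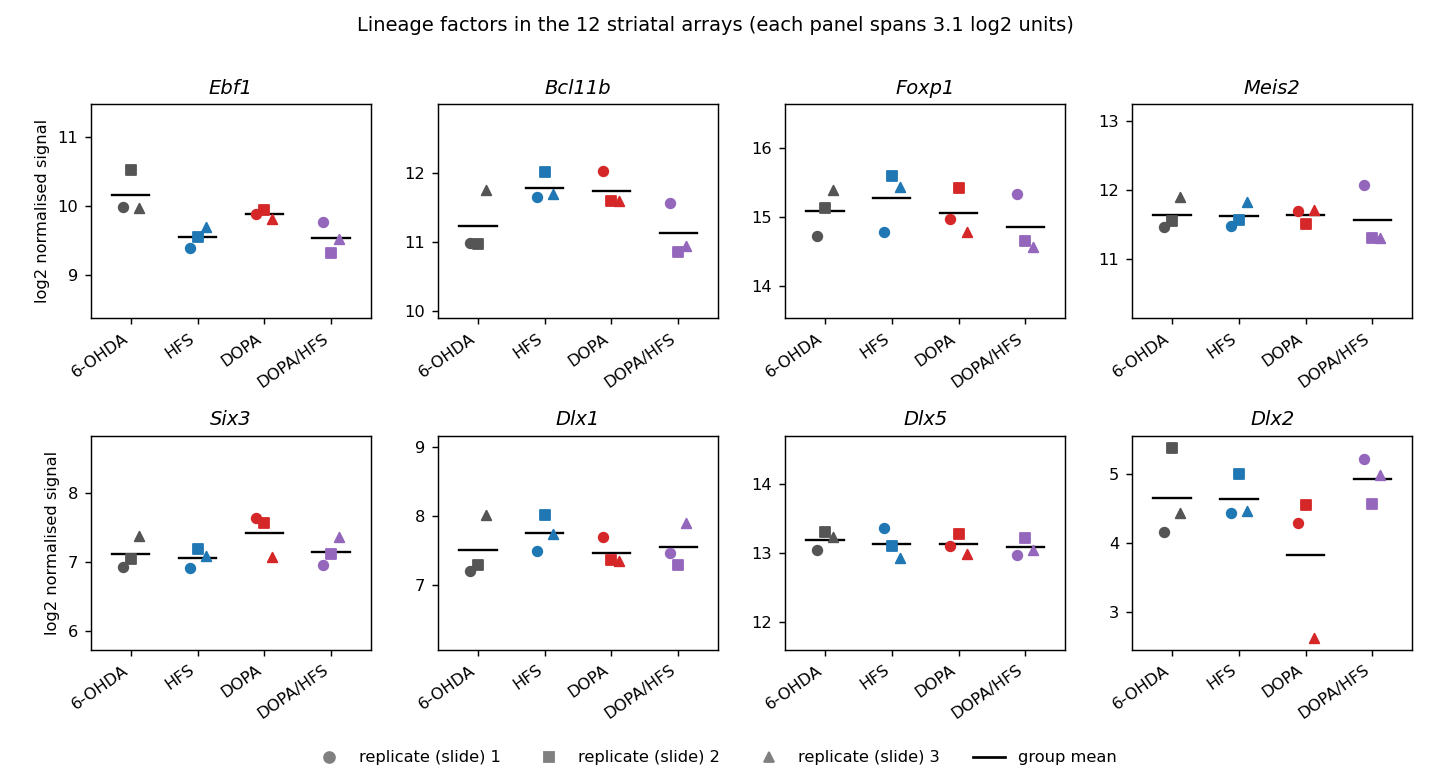
Log2 normalised signal of the 8 measured factors (brightest probe of each) on the 12 arrays, by group; marker shape gives the replicate, which is also the slide, and the line the group mean. Ebf1 lies lower in HFS (9.39 to 9.69) and DOPA/HFS (9.32 to 9.76) than in 6-OHDA (9.97 to 10.52), whereas Dlx5 spans 0.44 log2 units over all arrays.

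The Ebf1 signal was 0.653 of the 6-OHDA level with HFS (log2 difference -0.61, SE 0.18), 0.824 with DOPA (-0.28, SE 0.18) and 0.651 with DOPA/HFS (-0.62, SE 0.18). These 3 comparisons share the 6-OHDA arrays. With both stimulated groups against both unstimulated groups (6 against 6) the difference was -0.48 (SE 0.13), and with both L-DOPA groups against the other two it was -0.14 (SE 0.13). On slides 1, 2 and 3, each of which held 1 array of every group, HFS minus 6-OHDA was -0.59, -0.97 and -0.28. DOPA/HFS minus 6-OHDA was -0.22, -1.2 and -0.44 on the same slides, so that the size varied. As these groups did not overlap, the sign on each slide was fixed beforehand and adds nothing. Without 6-OHDA replicate 2, the highest Ebf1 array, the differences were -0.43 for HFS, -0.1 for DOPA and -0.44 for DOPA/HFS. As these contrasts put Ebf1 in the set, they carry no test.

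Markers of the choroid plexus, the tissue that makes cerebrospinal fluid in the ventricle beside the striatum, had higher values in the HFS arrays, without passing adjustment. Of 7 tested choroid plexus genes, 7 read higher in HFS than in 6-OHDA at an unadjusted p under 0.05. Their median log2 difference was 3.48 against 0.01 over all genes. It rests on 6-OHDA signals near background in some of these genes and is not read as a size. Of these 7, however, 4 were well above background on all 6-OHDA arrays and 2 on all 12. A gene can pass the filter through the arrays where it is high, so the count is a description and no fold is read. In HFS 2.34% of all genes passed the unadjusted threshold. The limma adjusted p was 0.998 for each of the 7 choroid plexus genes, so that 0 were called. Their summed signal was 349 to 781 in 6-OHDA, 4620 to 90400 in HFS, 398 to 17100 in DOPA and 535 to 1100 in DOPA/HFS. Ttr (transthyretin), the defining marker, had group means of 6.21, 14.48, 8.84 and 6.77 in the order 6-OHDA, HFS, DOPA and DOPA/HFS. The mean Ebf1 signal was 9.54 in HFS and 9.54 in DOPA/HFS. The part of this tissue in the values of Ebf1 and of the other members was not tested.

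**Figure D2:**
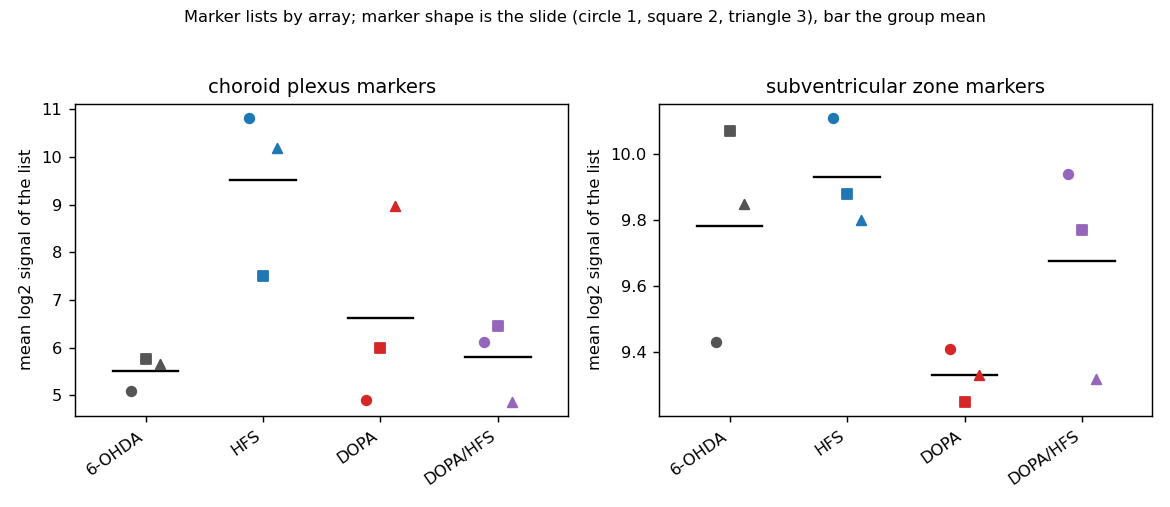
Mean log2 signal of 7 choroid plexus markers (left) and 6 markers of subventricular zone progenitors and neuroblasts (right) on the 12 arrays, by group; marker shape gives the slide and the bar the group mean. Choroid plexus markers are high in HFS replicates 1 and 3 (10.82 and 10.2) and DOPA replicate 3 (8.97); subventricular zone markers are at 9.25 to 9.41 in the DOPA arrays.

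In the other 7 members no difference passed the test in any comparison. Calls required an adjusted p under 0.1 in limma (Benjamini-Hochberg, over 20398 genes) and a fold over 1.2 or under 0.8, with no fold limit for the interaction. No member was called with HFS, where 0% of all genes were called, with DOPA (0.0049% of all genes) or with DOPA/HFS (0%). The same held for stimulation 6 against 6 (0%), for L-DOPA 6 against 6 (0.0049%) and for the interaction of both treatments (0%). The lowest adjusted p of a member was 0.911, in the comparison of stimulation. At an unadjusted p under 0.05, 0 members differed in the first 5 of these comparisons, against 2.34%, 2.58%, 2.75%, 4.36% and 2.74% of all genes in the same order. In the interaction 1 member did, Bcl11b, against 1.98% of all genes. By the fold limits and groups that do not overlap, the rank criterion nearest to the methods, 0 of the 7 members passed. Of all genes 3.2% passed by that criterion with HFS, 3.87% with DOPA, 2.51% with DOPA/HFS, 0.0931% for stimulation 6 against 6 and 0.103% for L-DOPA 6 against 6. An exact permutation test of 3 arrays against 3 cannot go below 0.1 and one of 6 against 6 not below 0.00216.

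**Figure D3:**
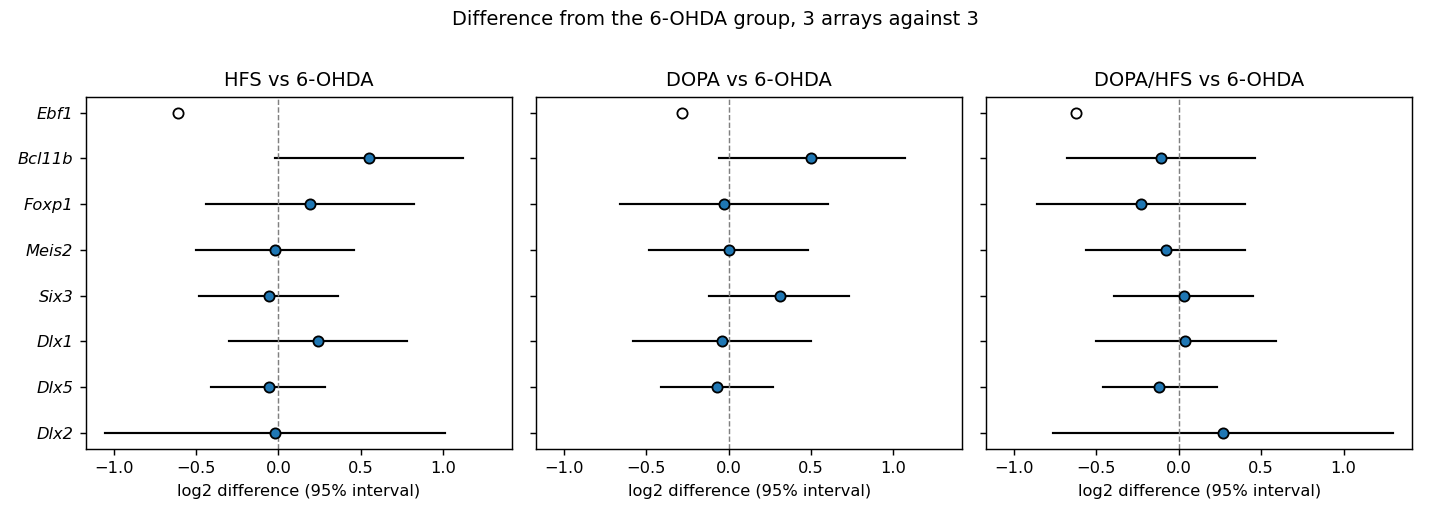
Log2 difference of each factor from the 6-OHDA group for HFS, DOPA and DOPA/HFS (3 arrays against 3), with the 95% interval of the limma fit as a line. The open symbol marks Ebf1, shown without an interval because these contrasts chose it, and Dlx2 is left out for DOPA, where no array was well above background, and was well above background on only 1 of 3 arrays of 6-OHDA; every interval drawn crosses 0.

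Bcl11b had the largest interaction of both treatments in size among the 7 tested members, though it did not pass adjustment. Its brighter probe read 10.98, 10.97 and 11.75 in the 6-OHDA arrays, 11.65, 12.02 and 11.69 in HFS, 12.03, 11.59 and 11.6 in DOPA, and 11.57, 10.86 and 10.95 in DOPA/HFS. Either treatment alone gave a higher mean than the lesion alone (11.78 ± 0.2 and 11.74 ± 0.25 against 11.23 ± 0.45, SD, n = 3), and the combination gave 11.13 ± 0.38. With HFS the log2 difference was 0.55 (95% interval -0.02 to 1.12, limma adjusted p = 0.998), and with DOPA it was 0.5 (-0.06 to 1.07, limma adjusted p = 1). By the exact two-sided permutation test p was 0.3 for each. DOPA/HFS stood at -0.11 (-0.68 to 0.46).

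The difference between both effects, DOPA/HFS minus DOPA minus HFS plus 6-OHDA, was -1.16 on the log2 scale (SE 0.36, 95% interval -1.97 to -0.36). Its unadjusted p in limma, with 12 arrays, was 0.00864 and its p adjusted over all genes was 1. A second probe of Bcl11b gave -1 (SE 0.43) with an unadjusted p of 0.0393 in the fit over 24239 probes, adjusted p = 1. Both probes correlated over the 12 arrays (r = 0.81), and they share the RNA of each array. On slides 1, 2 and 3 the brighter probe read 0.46, 0.72 and 0.65 lower in DOPA/HFS than in DOPA, whereas HFS minus 6-OHDA was 0.67, 1.04 and -0.06 and DOPA minus 6-OHDA 1.05, 0.61 and -0.15. On slide 3, then, Bcl11b was not higher with either treatment alone. Choroid plexus markers also had a negative interaction, in 7 of 7 genes with a median of -3.56. Signals near background in some of these genes leave that size uncertain. The Bcl11b interaction lay between -1.42 and -1.02 with single arrays left out. It was -1.23 without HFS replicate 1, -1.21 without HFS replicate 3 and -1.23 without DOPA replicate 3. Each of these fits kept other arrays with choroid plexus signal. The part of that tissue in the Bcl11b interaction was not tested.

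**Figure D4:**
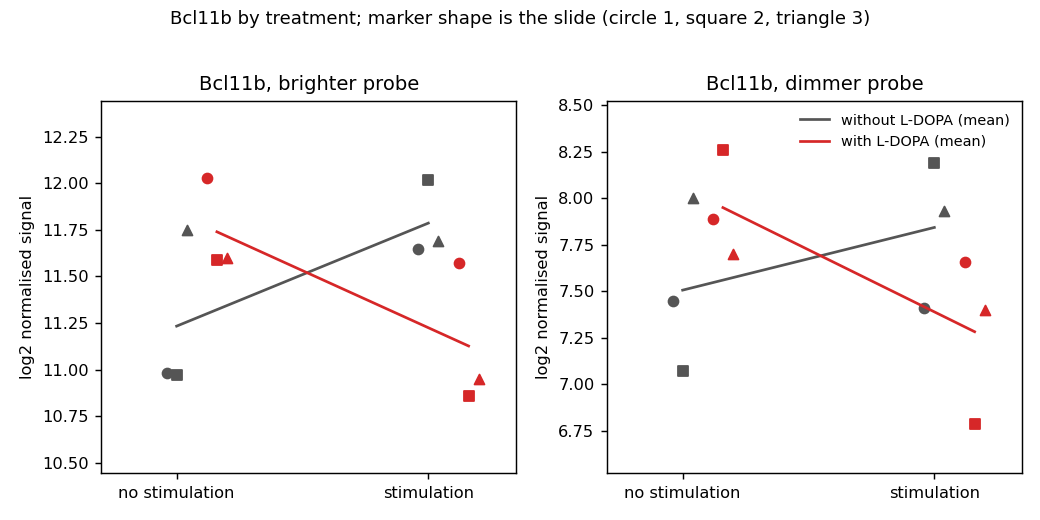
Log2 normalised signal of both Bcl11b probes without and with stimulation, in rats without L-DOPA (grey) and with L-DOPA (red); lines join group means and marker shape gives the slide. The lines cross in both probes, the brighter going from 11.23 to 11.78 without L-DOPA and from 11.74 to 11.13 with it.

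Foxp1, a forkhead repressor of mature projection neurons, varied more within groups than between them. The 6-OHDA arrays read 14.72, 15.13 and 15.39, the HFS arrays 14.77, 15.59 and 15.43, the DOPA arrays 14.96, 15.41 and 14.78, and the DOPA/HFS arrays 15.33, 14.65 and 14.56. Every pair of groups overlapped. The log2 difference from 6-OHDA was 0.19 with HFS (95% interval -0.44 to 0.82), -0.03 with DOPA (-0.66 to 0.6) and -0.23 with DOPA/HFS (-0.86 to 0.4). Its standard deviation within groups, 0.38, was larger than that of 72.2% of all tested genes.

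Both probes of RGD1559697, listed as a synonym of Foxp2, were well above background on all 12 arrays. The brighter read 11.02 to 11.59 in 6-OHDA, 11.23 to 11.47 in HFS, 11.17 to 11.43 in DOPA and 11.04 to 11.55 in DOPA/HFS. Its differences from 6-OHDA were 0.05, -0.03 and -0.1 (SE 0.19 each) with HFS, DOPA and DOPA/HFS. Those of the dimmer probe were 0.08, -0.06 and -0.11 (SE 0.25 each), and groups overlapped in both.

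Meis2 was level across treatments. Its arrays read 11.46, 11.55 and 11.89 in 6-OHDA, 11.47, 11.56 and 11.82 in HFS, 11.69, 11.5 and 11.71 in DOPA, and 12.07, 11.3 and 11.3 in DOPA/HFS. DOPA/HFS replicate 1 was the highest and the other two arrays of that group the lowest of all 12. Differences from 6-OHDA were -0.02 (95% interval -0.5 to 0.46), 0 (-0.48 to 0.48) and -0.08 (-0.56 to 0.4) with HFS, DOPA and DOPA/HFS. A probe of TC538140, described in the file as Meis2 but not under its name, followed it over the arrays (r = 0.89) and differed by 0, -0.11 and -0.13 (SE 0.19 each).

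Six3, the homeobox factor of indirect pathway neurons, read 6.93, 7.04 and 7.38 in 6-OHDA and 6.91, 7.18 and 7.08 in HFS. In DOPA it read 7.64, 7.56 and 7.07, and in DOPA/HFS 6.96, 7.12 and 7.36. DOPA replicates 1 and 2 were the highest of the 12 arrays, and DOPA replicate 3 lay among the 6-OHDA values. The difference with DOPA was 0.31 (95% interval -0.12 to 0.73, limma adjusted p = 1), with an exact permutation p of 0.2. It was -0.06 (-0.48 to 0.36) with HFS and 0.03 (-0.39 to 0.45) with DOPA/HFS.

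Among the Dlx genes, Dlx5 was the steadiest member, with a standard deviation within groups of 0.16, smaller than in most genes (14.3% of tested genes had a smaller one). Its 12 values lay between 12.92 and 13.36, and its differences from 6-OHDA were -0.06 (95% interval -0.41 to 0.28), -0.07 (-0.41 to 0.27) and -0.12 (-0.46 to 0.23) with HFS, DOPA and DOPA/HFS. Dlx1 read 7.2, 7.29 and 8.01 in 6-OHDA, 7.48, 8.01 and 7.74 in HFS, 7.69, 7.35 and 7.34 in DOPA, and 7.46, 7.28 and 7.89 in DOPA/HFS. All its groups overlapped. The Dlx1 difference with HFS was 0.24 (-0.3 to 0.78), with an exact permutation p of 0.4, and those with DOPA and DOPA/HFS were -0.04 and 0.04.

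Dlx2, which neighbours Dlx1 in the genome, was near the limit of the array. It was well above background on 1 of 3 arrays in 6-OHDA, on 2 of 3 in HFS, on 0 of 3 in DOPA and on 2 of 3 in DOPA/HFS. Signals were 4.16, 5.38 and 4.44 in 6-OHDA, 4.44, 5 and 4.47 in HFS, 4.3, 4.56 and 2.63 in DOPA, and 5.22, 4.57 and 4.99 in DOPA/HFS. The DOPA group has only a bound, a mean of 5.05 from the lowest signals well above background on its arrays. The measured means of the other groups (4.66, 4.64 and 4.93) were below that bound, so that no fold is given. As 2 of 3 arrays of the 6-OHDA group were also not well above background, no difference from that group is read for Dlx2.

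Markers of subventricular zone progenitors and neuroblasts, cells that carry Dlx1 and Dlx2, had lower values in DOPA, without a call. All 6 tested genes of that list had a negative difference from 6-OHDA, with a median of -0.48 against -0.01 over all genes. Of these, 3 had an unadjusted p under 0.05, as did 2.58% of all genes, and none was called. With stimulation 6 against 6, 5 genes were higher, 4 of them at an unadjusted p under 0.05, as were 4.36% of all genes. That comparison holds the low DOPA arrays on its unstimulated side. Against 6-OHDA, 0 genes had an unadjusted p under 0.05 with HFS (median 0.12) or with DOPA/HFS (median 0.03). The 3 genes lower in DOPA were Dcx (doublecortin, a microtubule protein of migrating neuroblasts; -0.6), Igfbpl1 (-0.67) and Top2a (a topoisomerase of dividing cells; -0.84). The summed signal of the list was 11700 to 19300 in 6-OHDA, 12900 to 15500 in HFS, 10400 to 13100 in DOPA and 10900 to 14900 in DOPA/HFS. Their part in the Dlx2 values was not tested. In the ependyma list, 3 of 3 tested genes were lower in DOPA (median -0.2), and the median was 0.46 with HFS and 0.1 with DOPA/HFS. With stimulation 6 against 6, 1 of these 3 was higher at an unadjusted p under 0.05, and 0 were called. In the lists of interneurons, astrocytes, microglia, oligodendrocytes and endothelium 0 genes had an unadjusted p under 0.05 in any comparison, and 0 were called.

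Correlations between members from rat to rat did not pass adjustment. A single pair, Foxp1 with Meis2, passed in 1 variant, with slide means removed, and its r depended on the processing. Over the 12 arrays 28 pairs of members were compared, and 0 pairs passed an adjusted p under 0.05 (permutation test with 100000 resamples), the lowest adjusted p being 0.525. The pairs with the highest r on these values were Foxp1 with Bcl11b (r = 0.62, permutation p = 0.0371, Spearman's rho = 0.63, permutation p = 0.0322) and Foxp1 with Meis2 (r = 0.6, permutation p = 0.0402, rho = 0.68, permutation p = 0.0187). Each adjusted p was 0.525 for r and 0.3 for rho. With group means removed r was 0.62 and 0.63, with slide means removed 0.73 and 0.83, and without the 2 arrays farthest from the Foxp1 median 0.43 and 0.65. For Foxp1 with Meis2 r was 0.36 with each array set to its 75th percentile and 0.5 with normexp. It was 0.61 in the deposited log2 values and 0.7 with flagged spots kept. Bcl11b and Meis2 followed with r = 0.57 (permutation p = 0.0562, adjusted p = 0.525; rho = 0.59, permutation p = 0.0463, adjusted p = 0.324) and 0.29 without the 2 farthest arrays. The order of pairs depended on the setting. With group means removed the highest r was 0.78 (Dlx1 with Six3), and without the 2 farthest arrays it was 0.76 (Bcl11b with Dlx1). Dlx5 and Meis2 had the most negative r of all pairs, -0.41. The highest r of Ebf1 was 0.28 (Meis2), and with group means removed 0.61 (Dlx2).

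Foxp1 and Meis2 also tracked the mean of 10 projection neuron markers, among them Ppp1r1b (DARPP-32) and Rgs9. This relation was computed for the 8 members after the data had been seen. The marker mean came from a normalisation that kept flagged spots, whereas the members' values came from one that left them out. For Foxp1 r was 0.84 (permutation p = 0.00112, adjusted p = 0.00448) and rho 0.79 (permutation p = 0.00325, adjusted p = 0.013). For Meis2 r was 0.84 (permutation p = 0.00056, adjusted p = 0.00448) and rho 0.81 (permutation p = 0.00216, adjusted p = 0.013). Without the 2 arrays farthest from the marker median r was 0.84 for Foxp1 and 0.7 for Meis2. With slide means removed it was 0.92 and 0.88. The marker mean was highest on DOPA/HFS replicate 1 (14.93) and lowest on DOPA/HFS replicates 3 (14.46) and 2 (14.51), the arrays at both ends of the Meis2 range. Replicate 3 of that group is the array with 4175 outlier spots. Bcl11b had r = 0.55 (permutation p = 0.0659, adjusted p = 0.176; rho = 0.52, permutation p = 0.0853, adjusted p = 0.227), and the other members between -0.35 (Dlx5) and 0.26 (Ebf1). The relation depended on the scaling between arrays, since with each array set to its 75th percentile r was 0.55 for Foxp1 and 0.19 for Meis2, and neither passed the permutation test.

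**Figure D5:**
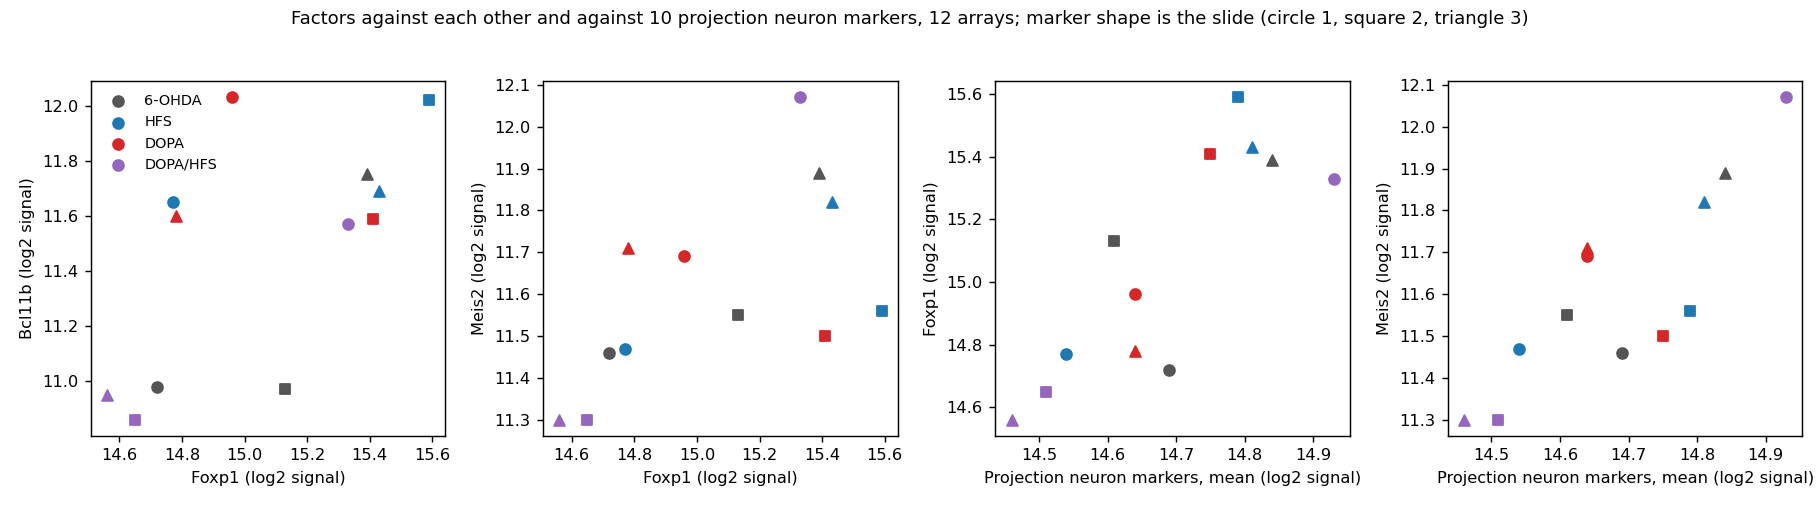
Each point is 1 of the 12 arrays, coloured by group, with the slide as marker shape: Foxp1 against Bcl11b and Meis2, and the mean log2 signal of 10 projection neuron markers against Foxp1 and Meis2. Points of different groups mix along each trend (r = 0.62, 0.6, 0.84 and 0.84 from left to right), and DOPA/HFS replicate 1 lies apart from replicates 2 and 3 of its group.

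The projection neuron markers themselves were without a call. Of 10 tested markers of both pathways, 0 were called in any comparison, and the median differences from 6-OHDA were -0.06, 0.05 and -0.02 with HFS, DOPA and DOPA/HFS. Drd1, the dopamine receptor of the direct pathway, where Ebf1 acts, differed by 0.01 (SE 0.21) with HFS. Tac1 (the substance P precursor) read 14.78 in 6-OHDA and 15.15 in HFS, a difference of 0.37 (SE 0.17, unadjusted p = 0.0492). Pdyn (preprodynorphin) read 14.7 in 6-OHDA and 16.09 in DOPA, a difference of 1.39 (SE 0.28, unadjusted p = 0.000394), with a limma adjusted p of 0.878, and 15.45 in DOPA/HFS (0.76, unadjusted p = 0.0201). Among indirect pathway markers, Drd2, Penk and Adora2a differed with HFS by 0.14 (SE 0.31), 0 (SE 0.21) and -0.18 (SE 0.14).

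Related lineage factors, from a list of 28 that includes paralogs and partners of the members, were likewise without a call. Of these, 22 had a probe and 15 passed the filter on dim probes, and 0 were called in any comparison. Their median difference was 0.09 with HFS, -0.04 with DOPA and 0.09 with DOPA/HFS, beside 0.01, -0.01 and -0.01 over all genes. A total of 3 had an unadjusted p under 0.05 in 1 comparison each. Of all genes 2.58% did so with DOPA, 4.36% with stimulation 6 against 6 and 1.98% in the interaction. Rxrg, a retinoid receptor, was 0.29 higher with DOPA (SE 0.13, unadjusted p = 0.0403), and its DOPA and 6-OHDA arrays did not overlap. With the fold limits, 3.87% of all genes had DOPA and 6-OHDA arrays that did not overlap. Sox11, a factor of immature neurons, was 0.41 higher with stimulation 6 against 6 (SE 0.18, unadjusted p = 0.0487). Zfp503, a zinc finger factor of the developing striatum, had group means of 10.82, 10.52, 10.49 and 10.77 in the order 6-OHDA, HFS, DOPA and DOPA/HFS, an interaction of 0.58 (SE 0.23, unadjusted p = 0.0269) and thus the opposite sign to Bcl11b. Isl1, which directs direct pathway neurons, differed by -0.11 (SE 0.18) with HFS. Pbx3, a cofactor of Meis proteins, and Rarb, a retinoic acid receptor, each differed by 0.09 (SE 0.21 and 0.17). Of the nearest paralogs Ebf2 passed the filter. Its group means were 4.63, 4.44, 4.25 and 4.67 in the order 6-OHDA, HFS, DOPA and DOPA/HFS. They lay near the limit of the array, as in Dlx2, so that no difference is read. Ebf3, Foxp4 and Bcl11a did not pass the filter, and Meis1 and Ikzf1 were not found under their names.

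The genes with the profile most like that of Ebf1 over the 12 arrays were Cox17, a copper chaperone of cytochrome c oxidase (r = 0.853), Tbc1d23 (0.818), Syt5, a synaptotagmin (0.805), Arrdc3 (0.804) and Bak1, a mitochondrial apoptosis effector (0.8), out of 8028 named genes measured on every array. In Cox17 the 6-OHDA arrays read 14.91, 15.2 and 14.93 and the HFS arrays 14.85, 14.9 and 14.89. Tbc1d23 read 9.15, 10.18 and 9.54 in 6-OHDA and 8.94, 9.33 and 9.17 in HFS. As in Ebf1, 6-OHDA replicate 2 was the highest array for Cox17, Tbc1d23, Arrdc3 and Bak1, and these values are a description.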

How the data were processed

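Striatal RNA from 12 rats had been labelled in a single colour and put on Agilent rat arrays, 1 rat an array, 4 to a slide. Spot intensity was read from the deposited scanner output, in which Agilent Feature Extraction 9.1 (submitters' processing notes) had subtracted a fitted background surface and corrected trends within each array, with no scaling between arrays. A deposited table of log2 values, quantile normalised by the authors with the AgiND library as their methods state, served as an alternative. The genome build behind the probes is not given in the sources used here.

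Of 45018 spots, 1639 controls and spots flagged as outliers were left out. Intensities were taken to log2, quantile normalised and averaged over spots of a probe. Probes well above background on at least 40% of arrays were kept (24239 probes), and the brightest probe stood for a gene (20398 genes). Marker sums and marker means kept flagged spots so that each array covered the same genes. Names came from the files, with 10735 probes named through the RefSeq gene table of GRCr8. Gene positions from that table were used to place the promoter stretches and the Dlx genes, and entered no test. Groups and replicate numbers came from the labels.

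The test was limma 3.58.1 (lmFit, eBayes; R 4.3.3) over all arrays and genes with Benjamini-Hochberg adjustment, and groups were not tested for Ebf1, which entered only the correlations over arrays. It was tested on simulated data with known differences. Exact two-sided permutation tests served for single values. Named were all members, the nearest relatives and defining markers, listed genes with an unadjusted p under 0.05, and the 5 genes most correlated with Ebf1. A listed gene that met this rule is not reported here. Members, lists and tests were chosen with earlier results of these data known, and the relation to projection neuron markers was added after the data had been seen.

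Alternatives were 75th percentile scaling, normexp with an offset of 50, the deposited table, other filters, the mean of probes, flagged spots kept, stricter or looser calls, fits of the compared groups, the rank criterion, the slide as a block, and each array left out. The replicate number is the slide, as the file headers show, so it pairs the arrays. Over 18 same-numbered pairs of different groups, deviations from the group means correlated between -0.288 and 0.477 (median 0.112, against -0.0693 for other pairs). Position on the slide goes with the group, so both cannot be told apart. With 3 arrays a group, their number limits how precise any value can be. The authors' own fold changes and p-values were not used.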

Additional observations from a re-analysis of the deposited data

Results flagged for a closer look

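The differences of Bcl11b under one treatment had opposite signs without and with the other. All 3 HFS arrays lay above the 6-OHDA mean (by 0.41 to 0.78, mean 0.55), and all 3 DOPA/HFS arrays lay below the DOPA mean (-0.88 to -0.17, mean -0.61). Read from the L-DOPA side, all 3 DOPA arrays lay above the 6-OHDA mean (by 0.35 to 0.79) and all 3 DOPA/HFS arrays below the HFS mean (-0.92 to -0.22). Against the array of the same slide, the sign failed on slide 3, where HFS minus 6-OHDA was -0.06 and DOPA minus 6-OHDA -0.15. Both readings give the same value, -1.16 on the log2 scale. The interaction did not pass adjustment over all genes (limma adjusted p = 1). The same pattern of signs, in either order, was met by 3.58% of all genes for stimulation and by 4.44% for L-DOPA, and by no other member.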

How the results depend on the processing

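The count of called members other than Ebf1 was 0 in all 6 comparisons and stayed 0 in every alternative, with 0 to 0 over the fits that left out 1 array. With the slide as a replicate block the counts were also 0, and the Bcl11b interaction was -1.16. It lay between -1.42 and -1.02 over all alternatives, with adjusted p from 0.992 to 1, and was lowest without 6-OHDA replicate 3. Of 402 member differences under other settings, 388 kept their sign, as did 509 of 576 with single arrays left out, and the changes of sign were in differences that no test had called. For Dlx2 in DOPA against 6-OHDA, where DOPA gives only a bound, the value depended on the setting. It was -0.83 in the main fit, -0.13 with normexp and -0.16 in the deposited table, and is not read as a difference. In that table the median of all genes in DOPA/HFS against 6-OHDA was -0.12, beside which Ebf1 lay lower. Of the pairs of members, 1 passed (Foxp1 with Meis2) once slide means were removed and 0 otherwise. The cause of these shifts was not tested. Signals near background, as in Dlx2, limit what can be measured.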
